A study of Marchantia polymorpha and Klebsormidium nitens with 125 samples.

Results

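The genes described here are 32 of the 16122 genes counted in the filamentous streptophyte alga Klebsormidium nitens. Each was at least 1.8 times as high 6 h after a nutrient was given back as 72 h after it, for nitrate, for phosphate and for sucrose. The genes were chosen by the ratio of group means in CPM, a gene's count scaled to the library total, with 1 CPM added to both means, and by a level of at least 5 CPM in all 3 groups at 6 h. Because the 6 h and 72 h values chose the genes, they are given below as a description with no test. Tests compare only the 24 h, starved and control groups. The fit behind them used all 39 libraries, so the 6 h and 72 h libraries also entered its error estimate, scaling and filter on low counts.

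RNA was sequenced from whole plants of strain NIES-2285, with 3 libraries in each of 13 groups. For each nutrient, 3 groups were resupplied for 6, 24 or 72 h after starvation and 1 group was starved only. Starvation lasted 5 days in Yamagami medium holding nitrate at 1%, phosphate at 1% or sucrose at 0% of the full recipe. The control group was labelled as full Yamagami medium, and the day of its harvest was not given. All cultures had first grown for 7 days in full liquid medium. The design set the nutrient response of the alga beside that of a liverwort, which was not analysed here. The treatment protocol describes recovery as a replacement by full medium, in a sentence about the liverwort only. Return of the nutrient and the change of medium cannot be told apart in any resupplied group, nor can time after resupply and the age of the culture.

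Klebsormidium belongs to the streptophyte algae, the lineage from which land plants arose. Plants and algae take up nitrate and phosphate through transporters and use sugars both as carbon and as signals. In land plants such as Arabidopsis, nitrate given to starved tissue is known to change transcription within minutes to hours, and part of that response is transient. None of the K. nitens identifiers was paired with a name in the sources used here (0 matches), so no function is given for any gene and no sequence is shown.

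Totals per library ran from 18750994 to 33047350 counts. Levels are CPM after TMM scaling, a correction for differences in RNA composition that sets the control libraries at 0.76 to 0.775 of the average scale. They can be compared between libraries for 1 gene, and not between genes, whose lengths were not given. In 2 groups a library lay nearest to a library of another group. Library c of the nitrate 24 h group had a mean correlation of 0.963 with the other nitrate 24 h libraries and lay nearest to a sucrose 72 h library (0.979), over the log levels of all tested genes. Library c of the phosphate 24 h group lay nearest to a phosphate 72 h library (0.989). Its mean correlation with its own group was 0.9837, against 0.9828 for library a and 0.9875 for library b of that group, so it stood apart in its nearest library and not in this mean. Counts and fold changes that use these groups are given with and without both libraries c. The letters a, b and c stand for libraries whose column names matched a group but the labels of more than 1 sample.

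The rule was met for nitrate alone by 414 genes, for phosphate alone by 218 and for sucrose alone by 184. The mirrored rule, at least 1.8 times as high at 72 h for every nutrient and 5 CPM or more in all 3 groups at 72 h, was met by 85 genes. In all 32 genes every 6 h library lay above every 72 h library for each nutrient, which the choice of genes largely fixes. Among the 10782 genes at 5 CPM or more in all 3 groups at 6 h this held for 14.6%. The smallest of a gene's 3 ratios was 1.82 in each of the 3 genes nearest above the threshold, KFL_000550170, KFL_002220100 and KFL_001850250. It was 1.79, 1.78 and 1.78 in the 3 genes nearest below it, KFL_000610280, KFL_000870050 and KFL_000180050. The threshold therefore cut through a continuous range of ratios, and sucrose was the limiting nutrient in 16 of the 32 genes, phosphate in 12 and nitrate in 4. After scaling, the median 6 h level was 3.14 times the 72 h level for nitrate, 2.16 times for phosphate and 2.15 times for sucrose.

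A peak at 6 h, taken as any excess of the 6 h mean over the other means of its nutrient, described 18 of the 32 genes. The excess over 72 h is fixed by the rule. Some excesses over the starved group were small, as in KFL_003550080 for sucrose, with means of 17 CPM at 6 h and 16.1 CPM when starved. In these 18 the 6 h mean was the highest of the starved, 6 h, 24 h and 72 h means for all 3 nutrients. It was the highest for 2 nutrients in 4 genes, for 1 nutrient in 5 genes and for none in 5 genes. The last 5 genes, KFL_009260030, KFL_001570110, KFL_010750010, KFL_001180130 and KFL_000030750, were not at their highest at 6 h for any nutrient. In 4 of them the starved group was the highest for every nutrient, and in KFL_010750010 it was the highest for nitrate and phosphate, with the 24 h group the highest for sucrose. Counted by nutrient, 25 genes had their highest mean at 6 h for nitrate, 24 for phosphate and 18 for sucrose. The 24 h mean lay between the 6 h and 72 h means in 31 genes for nitrate, 31 for phosphate and 25 for sucrose. With both libraries c left out, the 6 h mean was the highest for all 3 nutrients in 16 genes, for 2 in 4, for 1 in 7 and for none in 5, and the 24 h mean lay between in 30 genes for nitrate and 29 for phosphate.

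**Figure D1:**
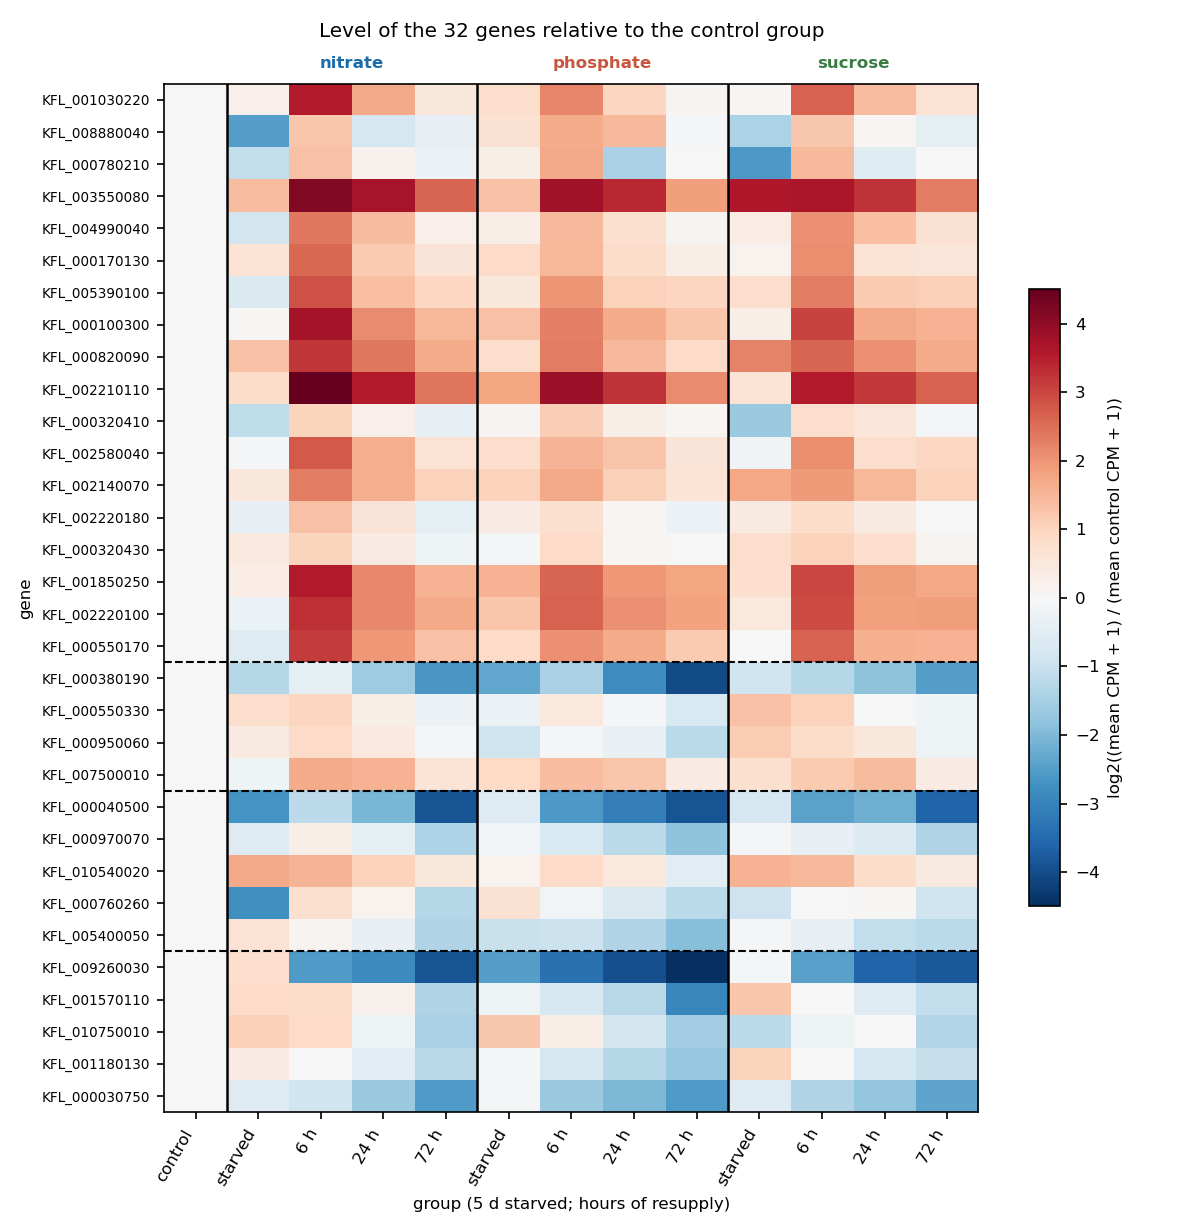
Level of each of the 32 genes (rows) in each of the 13 groups (columns), as the log2 ratio of mean TMM-scaled CPM + 1 to that of the control group. Dashed lines separate genes whose 6 h mean was the highest of 4 for 3, 2, 1 and 0 nutrients, from top to bottom. The 6 h columns are above 0 in the 18 upper genes, and in the lowest 5 the 72 h columns are below 0.

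The pair with the highest smallest ratios, KFL_001030220 and KFL_008880040, had the early peak for every nutrient with all libraries. For KFL_008880040 the phosphate peak at 6 h was lost without library c of the phosphate 24 h group. KFL_001030220 had 1.2, 0.76 and 1.72 CPM in the control libraries. In the nitrate course it had 1.63, 2.02 and 1.15 CPM in starved libraries, 28.2, 23 and 24.8 CPM at 6 h, 8.89, 8.93 and 1.16 CPM at 24 h, and 1.23, 2.59 and 2.58 CPM at 72 h. Its 6 h nitrate libraries were the highest of all 39 libraries, and at 24 h library c was as low as the starved libraries while a and b were higher. In the phosphate course KFL_001030220 had 1.45, 1.64 and 5.49 CPM in starved libraries, 9.66, 10.5 and 7.51 CPM at 6 h, 4.6, 3.47 and 1.92 CPM at 24 h, and 1.76, 1.4 and 1.09 CPM at 72 h. In the sucrose course it had 1.01, 1.45 and 1.71 CPM in starved libraries, 11.3, 14.7 and 13.2 CPM at 6 h, 3.42, 6.58 and 4.48 CPM at 24 h, and 3.6, 1.61 and 2.36 CPM at 72 h. Its 6 h libraries overlapped with no starved, 24 h or 72 h library of the same nutrient. Its ratio of 6 h to 72 h was 8.52 for nitrate, 4.32 for phosphate and 4.17 for sucrose.

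KFL_008880040 had 166, 131 and 150 CPM in the control libraries. In the nitrate course it had 26.7, 30.3 and 20 CPM in starved libraries, 288, 353 and 421 CPM at 6 h, 125, 116 and 14 CPM at 24 h, and 106, 112 and 131 CPM at 72 h. In the sucrose course it had 54.4, 55.6 and 54.5 CPM in starved libraries, 326, 350 and 354 CPM at 6 h, 135, 176 and 149 CPM at 24 h, and 102, 118 and 110 CPM at 72 h. In both courses the starved libraries were below the control libraries, the 6 h libraries above them and the 72 h libraries between 102 and 131 CPM. The phosphate course was more scattered, with 96.5, 118 and 513 CPM in starved libraries, 278, 616 and 539 CPM at 6 h, 622, 494 and 112 CPM at 24 h, and 264, 103 and 64.5 CPM at 72 h. There the starved library c lay within the 6 h range, and the 6 h libraries overlapped with the starved and the 24 h libraries. Libraries a and b at 24 h of phosphate were both above the 6 h mean of 478 CPM. With library c left out, the phosphate mean was therefore higher at 24 h than at 6 h.

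Early levels were highest after nitrate in most of the 32 genes. After 6 h, 25 of the 32 genes had their highest mean after nitrate, 4 after sucrose and 3 after phosphate, and 25 had their lowest mean after phosphate. In 21 genes the order was nitrate above sucrose above phosphate. The median 6 h level was 3.65 times the starved level for nitrate, 1.69 times for phosphate and 1.36 times for sucrose. Against the control, the median 6 h level was 2.5 times as high for nitrate, 2.39 times for phosphate and 2.29 times for sucrose. At 6 h, 21 genes were above the control mean for every nutrient and 4 were below it for every nutrient. By 72 h the median level was 0.893 times the control for nitrate, 1.01 times for phosphate and 1.05 times for sucrose. The genes themselves lay on both sides of the control at 72 h, from 0.0681 to 6.15 times it for nitrate (15 genes above), from 0.0339 to 4.35 times for phosphate (16 above) and from 0.0722 to 6.26 times for sucrose (17 above). These ratios to the control rest on the TMM scale, 0.76 to 0.775 in control libraries against 1.05 to 1.08 at 72 h. Without TMM scaling the ratios to the control at 6 h and 72 h would be higher, and they were not given that way.

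Over all 13 groups, the highest mean was a median of 9.13 times the lowest, with 1 CPM added, and this ratio ran from 2.43 in KFL_000320430 to 49.9 in KFL_009260030. The groups at 6 h and 72 h that chose the genes are among the 13, so part of this range is fixed by the rule. The nitrate 6 h group was the highest of the 13 groups in 17 genes. No gene was highest at 24 h (0 in each group) with all libraries, and with both libraries c left out 2 were highest at 24 h of nitrate and 1 at 24 h of phosphate; the rule keeps the 72 h groups from being the highest. The lowest group was phosphate at 72 h in 11 genes, the control in 8 and nitrate starvation in 7. Together the 32 genes took 0.815, 0.793 and 0.751% of the counts in the nitrate 6 h libraries, against 0.217, 0.22 and 0.239% in nitrate-starved libraries and 0.193, 0.193 and 0.212% in control libraries. KFL_002210110 was the largest single part of these sums at 6 h. Without it the shares were 0.527, 0.49 and 0.468% in nitrate 6 h libraries and 0.203, 0.202 and 0.22% in nitrate-starved libraries, so the 6 h libraries lay above the starved ones with and without that gene.

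**Figure D2:**
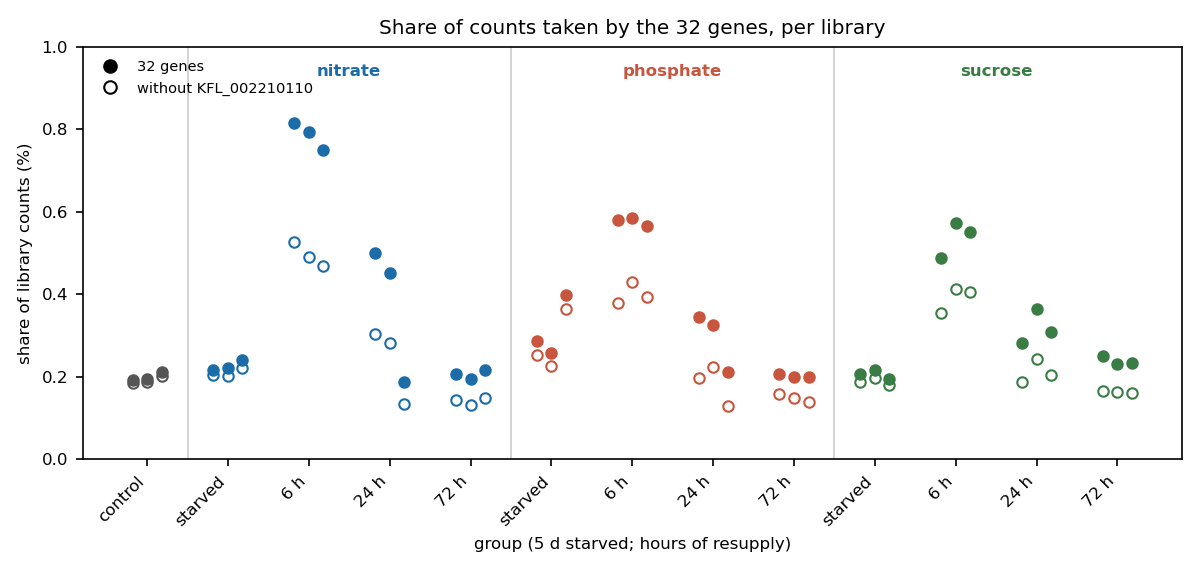
Share of each library's counts (%) taken by the 32 genes (filled) and by 31 of them without KFL_002210110 (open), with 3 libraries a group and colours for the nutrient. The 6 h libraries are the highest of each nutrient; at 24 h library c of nitrate (0.186%) and of phosphate (0.211%) are below the other 24 h libraries, and the phosphate-starved library c (0.399%) is above the other phosphate-starved libraries.

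Within several groups the genes shifted together from library to library. Library 1 of the sucrose 6 h group held the lowest level of its group for 31 of the 32 genes, against 39.5% of the 10782 genes. Library c of the nitrate 24 h group was the lowest for 30 genes (45.7% of the 10782 genes) and library c of the phosphate 24 h group for 26 genes (35.3%). Library c was also the lowest for 25 genes at 6 h of nitrate (36.6%) and 23 at 6 h of phosphate (35.5%). In the nitrate-starved group it was the lowest for 20 (41.9%), while at 72 h of nitrate it was the highest for 19 (34.4%). Library 1 of the sucrose 24 h group was the lowest for 24 genes (34.1%). Library 3 of the sucrose-starved group was the lowest for 26 genes (38.7%). In the phosphate-starved group library c was the highest for 27 genes (36.3%). The levels of the 32 genes therefore do not vary independently of each other among replicate libraries, and their counts above and below are not 32 separate observations.

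Starvation moved the genes in both directions. In each comparison with the control the share called was near that over all 12176 tested genes, while the share changed at least 2-fold was higher than over all tested genes. The rule picks genes that vary between groups, so part of a higher 2-fold share may come with the choice of genes. Their median range over the 13 groups was 9.13 times, against 1.94 times in genes at 5 CPM or more in all 6 h groups. The same limit holds for every 2-fold share below. All 32 genes passed the filter on low counts, also over the 21 libraries outside the 6 h and 72 h groups. Calls are from edgeR's quasi-likelihood test with Benjamini-Hochberg adjustment over all tested genes, at an adjusted p under 0.05.

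Under nitrate starvation 22 genes changed against the control (68.8%, against 62.9% of all tested genes). Of these 10 were higher and 12 lower, where 31% and 31.9% of all tested genes were. Changes of at least 2-fold were called in 11 genes (34.4%, against 12.5%), 4 upward and 7 downward, against 5.02% and 7.47% of all tested genes. The median log2 change was 0.26, with 0.01 over all tested genes. Without TMM scaling 13 genes were higher and 8 lower.

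Under phosphate starvation 19 genes changed (59.4%, against 58.4%), 14 higher and 5 lower, where 32% and 26.4% of all tested genes were. Changes of at least 2-fold were called in 13 genes (40.6%, against 10.3%), 9 upward and 4 downward, against 5.81% and 4.49%. The median log2 change was 0.48, with 0.03 over all tested genes.

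Under sucrose starvation 23 genes changed (71.9%, against 68.1%), 15 higher and 8 lower, where 36.5% and 31.5% of all tested genes were. Changes of at least 2-fold were called in 13 genes (40.6%, against 18.2%), 9 upward and 4 downward, against 7.65% and 10.5%. The median log2 change was 0.40, with 0.04 over all tested genes. Without TMM scaling 16 genes were higher and 2 lower; leaving out the scaling moved the median of all genes by 0.19 to 0.44 (log2) in the 3 starvations. The 3 comparisons share the control libraries.

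KFL_003550080 rose under every starvation. It had 3.81, 2.77 and 1.6 CPM in nitrate-starved libraries, 3.17, 2.39 and 2.13 CPM in phosphate-starved libraries, and 18.1, 16.7 and 13.7 CPM in sucrose-starved libraries, against 0.558, 0.0585 and 0.654 CPM in control libraries. The control libraries held 26 counts of it in all, every starved library lay above every control library, and the sucrose-starved libraries were the highest. It changed on the log2 scale by 2.63 ± 0.69 for nitrate (SE, edgeR adjusted p = 0.00141), 2.54 ± 0.70 for phosphate (adjusted p = 0.00243) and 5.19 ± 0.59 for sucrose (adjusted p = 5.23e-09).

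KFL_000820090 was called higher under every starvation as well. It had 6.44, 6.58 and 3.19 CPM in nitrate-starved libraries, 3.21, 2.18 and 4.94 CPM in phosphate-starved libraries, and 10.9, 13.2 and 8.96 CPM in sucrose-starved libraries, against 0.956, 0.935 and 2.85 CPM in control libraries. Control library 3 was higher than the other control libraries and overlapped with the phosphate-starved libraries. Its log2 fold change was 1.83 ± 0.49 for nitrate (edgeR adjusted p = 0.00183), 2.85 ± 0.48 for sucrose (adjusted p = 4.35e-06) and 1.17 ± 0.51 for phosphate (adjusted p = 0.0493). The phosphate call was lost in 7 of 11 other settings of the analysis (edgeR adjusted p up to 0.224).

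KFL_000380190 and KFL_000040500 were called lower under every starvation. KFL_000380190 had 14.7, 20.2 and 17.8 CPM in nitrate-starved libraries, 7.23, 7.14 and 9.58 CPM in phosphate-starved libraries, and 26.8, 22.7 and 20.9 CPM in sucrose-starved libraries, against 34.2, 40.1 and 59.7 CPM in control libraries. All starved libraries were below all control libraries, and the phosphate-starved ones were the lowest. Its log2 fold change was -1.34 ± 0.29 for nitrate (edgeR adjusted p = 0.000159), -2.48 ± 0.30 for phosphate (adjusted p = 4.99e-08) and -0.92 ± 0.28 for sucrose (adjusted p = 0.00468).

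KFL_000040500 had 25.6, 27.3 and 16.5 CPM in nitrate-starved libraries, 88.4, 86.4 and 131 CPM in phosphate-starved libraries, and 90.3, 97.7 and 85.5 CPM in sucrose-starved libraries, against 149, 157 and 155 CPM in control libraries. Nitrate-starved libraries were far below all others, and no starved library reached the control range. edgeR's log2 fold change was -2.73 ± 0.26 for nitrate (edgeR adjusted p = 2.23e-10), -0.60 ± 0.24 for phosphate (adjusted p = 0.0325) and -0.75 ± 0.24 for sucrose (adjusted p = 0.00637). Its phosphate call was lost in 6 of 11 other settings (edgeR adjusted p up to 0.129).

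**Figure D3:**
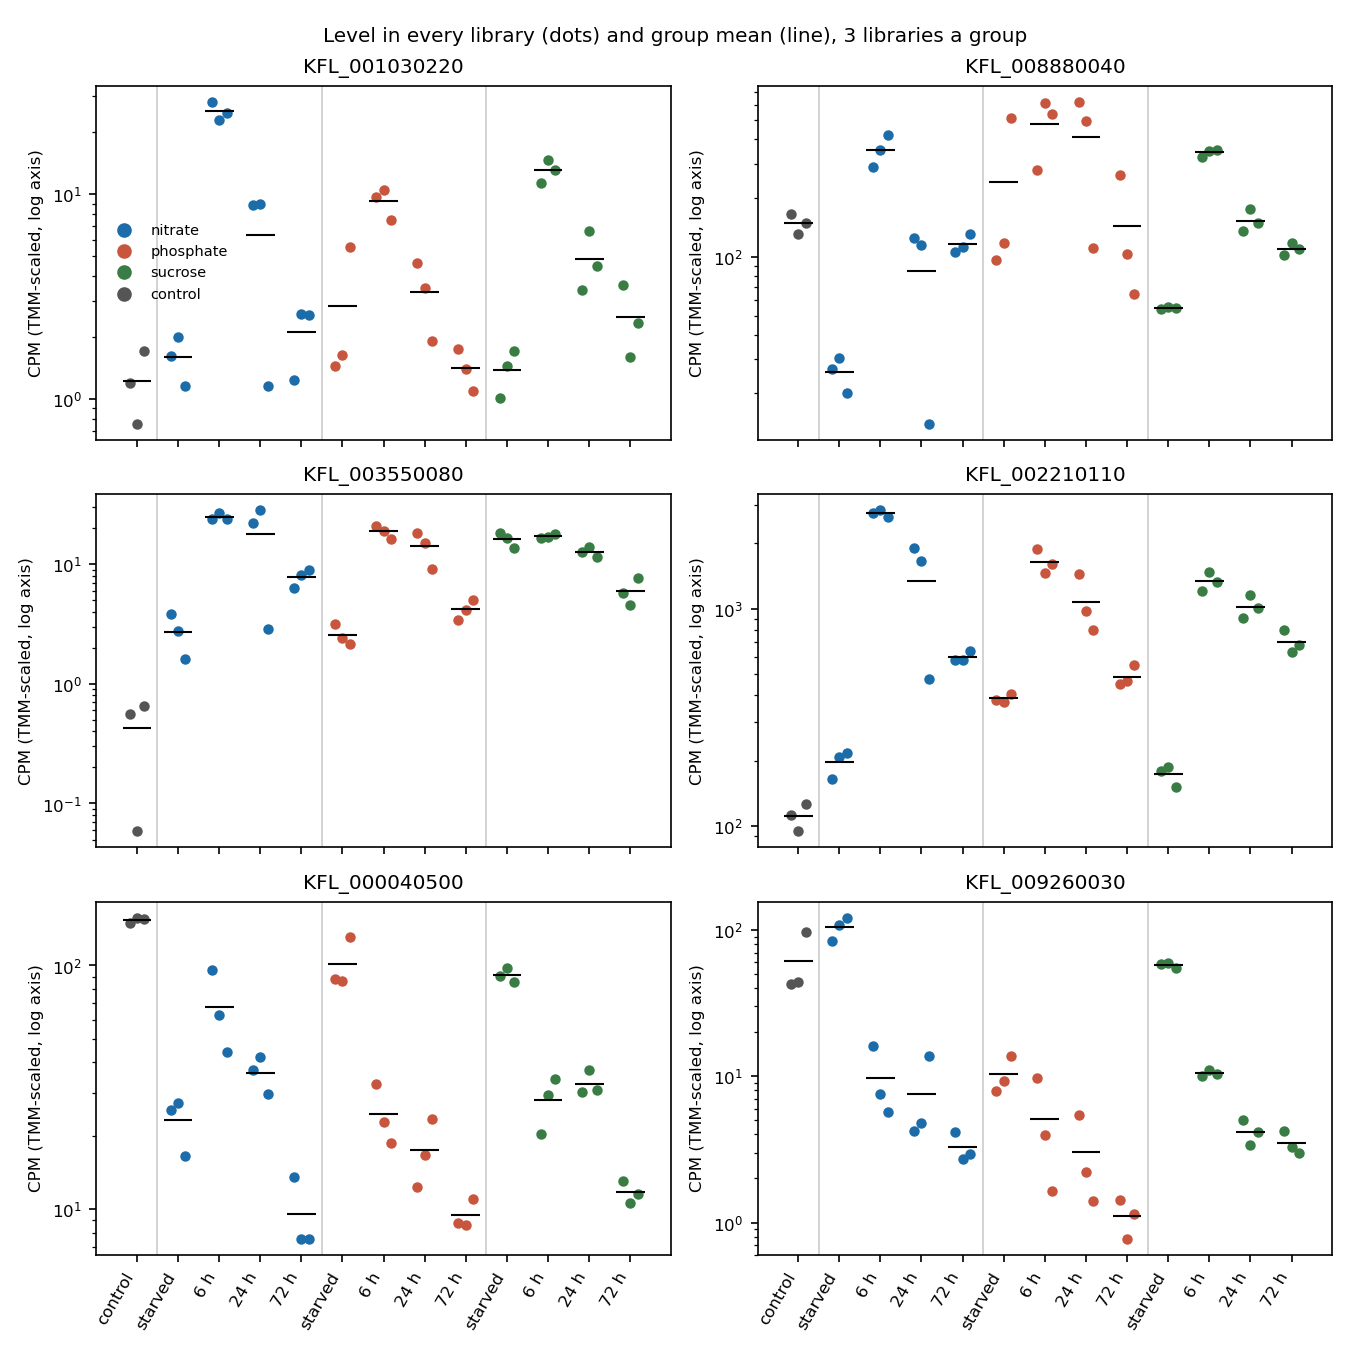
TMM-scaled CPM (log axes, a different range in each panel) of 6 of the 32 genes in all 39 libraries, with group means as lines. The upper pair peaks at 6 h for nitrate and sucrose; KFL_003550080 is lowest in the control, KFL_000040500 is highest in the control, and KFL_009260030 has a lower mean at 6 h than in the starved group of each nutrient.

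The starved groups also differed from each other. Between phosphate- and nitrate-starved cultures 26 genes differed (81.2%, against 66.6% of all tested genes by edgeR's test), 17 higher and 9 lower after phosphate starvation, where 36.7% and 29.9% of all tested genes were. At least 2-fold differences were called in 12 genes upward and 7 downward (59.4% in all, against 16.3%, with 10.1% upward and 6.21% downward over all tested genes). Between sucrose- and nitrate-starved cultures 19 genes differed (59.4%, against 58%), 15 higher and 4 lower after sucrose starvation, where 31.6% and 26.4% of all tested genes were. At least 2-fold differences were called in 8 genes upward and 2 downward (31.2% in all, against 9.79%, with 4.18% upward and 5.61% downward).

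Between sucrose- and phosphate-starved cultures 24 genes differed (75%, against 63.6%), 12 in each direction, where 29.6% of all tested genes were higher and 34% lower. At least 2-fold differences were called in 9 genes in each direction (56.2% in all, against 14.8%, with 5.81% upward and 8.96% downward). The median log2 difference was 0.68 for phosphate over nitrate starvation, 0.54 for sucrose over nitrate and -0.07 for sucrose over phosphate. On the median, then, the levels before resupply were the lowest after nitrate starvation.

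At 24 h of nitrate resupply most of the genes were above the starved level. With all libraries 25 genes changed (78.1%, against 74.6% of all tested genes by edgeR's test), 19 higher and 6 lower, where 39.3% and 35.3% of all tested genes were. Changes of at least 2-fold were called in 17 genes upward and 4 downward (65.6% in all, against 24.2%, with 15.2% upward and 9.05% downward over all tested genes). The median log2 change was 1.22, with 0.05 over all tested genes. When library c of the nitrate and of the phosphate 24 h groups was left out, a choice made after seeing the data, 26 genes changed, 21 higher and 5 lower, against 74% of all tested genes, 37.7% higher and 36.2% lower. The median was then 1.60, and at least 2-fold changes were called in 18 genes upward and 2 downward (24.4% of all tested genes, 14.8% upward and 9.56% downward).

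At 24 h of phosphate resupply the calls were fewer and depended on library c. With all libraries 15 genes changed (46.9%, against 53.6% of all tested genes), 6 higher and 9 lower, where 27.6% and 26% of all tested genes were. Changes of at least 2-fold were called in 2 genes upward and 9 downward (34.4% in all, against 8.25%, with 3.01% upward and 5.24% downward). Without both libraries c, 24 genes changed, 14 higher and 10 lower, against 56.1% of all tested genes, 28.9% higher and 27.3% lower, and the 15 calls made with all libraries kept their direction. The at least 2-fold changes were then 6 upward and 8 downward (8.83% of all tested genes, 3.5% upward and 5.33% downward). Without TMM scaling, which moved the median of all genes by 0.28 (log2), the split with all libraries was 13 higher and 8 lower. The median log2 change was 0.21 with all libraries and 0.35 without both libraries c, with 0.03 over all tested genes.

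At 24 h of sucrose resupply 25 genes changed (78.1%, against 62.2% of all tested genes by edgeR's test), 14 higher and 11 lower, where 31.8% and 30.4% of all tested genes were. Changes of at least 2-fold were called in 13 genes upward and 7 downward (62.5% in all, against 14.3%, with 8.83% upward and 5.52% downward). The median log2 change was 0.21, with 0.02 over all tested genes. Over the 3 nutrients, 4 genes were called higher at 24 h than in the starved group each time (12.5%, against 13.4% of all tested genes), 3 were called lower each time (9.38%, against 12%), and 4 changed in opposite directions (12.5%, against 12.1%). These shares were near those of all tested genes. With both libraries c left out, 9 genes were called higher each time (28.1%, against 14.7%), 3 lower each time (9.38%, against 12.6%) and 8 in opposite directions (25%, against 13.3%).

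KFL_002210110 and KFL_000550170 rose at 24 h for every nutrient. KFL_002210110 had 1904, 1647 and 476 CPM at 24 h of nitrate resupply, against 165, 207 and 218 CPM in nitrate-starved libraries. It had 1443, 978 and 799 CPM at 24 h of phosphate, against 381, 372 and 407 CPM in phosphate-starved libraries, and 901, 1159 and 1002 CPM at 24 h of sucrose, against 181, 187 and 151 CPM in sucrose-starved libraries. All 24 h libraries were above all starved libraries of the same nutrient, with library c the lowest for nitrate and phosphate. The log2 fold change was 2.77 ± 0.27 for nitrate (edgeR adjusted p = 1.39e-10), 1.47 ± 0.26 for phosphate (adjusted p = 1.8e-05) and 2.56 ± 0.27 for sucrose (adjusted p = 1.61e-09). With both libraries c left out it was 3.17 ± 0.15 for nitrate and 1.65 ± 0.14 for phosphate.

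KFL_000550170 had 43.1, 47.7 and 17.5 CPM at 24 h of nitrate, against 5.64, 5.95 and 4.65 CPM in nitrate-starved libraries. It had 34.6, 37.9 and 17.3 CPM at 24 h of phosphate, against 18.1, 12.9 and 18.4 CPM in phosphate-starved libraries, and 25.2, 31.9 and 27.6 CPM at 24 h of sucrose, against 7.94, 9.6 and 7.8 CPM in sucrose-starved libraries. The groups overlapped for phosphate, through library c, and not for nitrate or sucrose. It changed on the log2 scale by 2.73 ± 0.27 for nitrate (edgeR adjusted p = 1.58e-10), 0.86 ± 0.24 for phosphate (adjusted p = 0.00349) and 1.74 ± 0.26 for sucrose (adjusted p = 9.55e-07). The values were 3.06 ± 0.16 for nitrate and 1.14 ± 0.15 for phosphate with both libraries c left out.

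KFL_009260030 and KFL_000030750 fell at 24 h for every nutrient. KFL_009260030 had 4.22, 4.78 and 13.6 CPM at 24 h of nitrate, against 83.5, 109 and 121 CPM in nitrate-starved libraries. It had 5.47, 2.2 and 1.4 CPM at 24 h of phosphate, against 7.91, 9.24 and 13.8 CPM in phosphate-starved libraries, and 5, 3.37 and 4.15 CPM at 24 h of sucrose, against 58.3, 59.5 and 54.7 CPM in sucrose-starved libraries. No 24 h library overlapped with a starved library of the same nutrient, and nitrate library c was the highest of its 24 h group. Its log2 fold change was -3.76 ± 0.44 for nitrate (edgeR adjusted p = 6.04e-09), -1.68 ± 0.49 for phosphate (adjusted p = 0.00459) and -3.78 ± 0.47 for sucrose (adjusted p = 3.95e-08). Without both libraries c the values were -4.54 ± 0.46 for nitrate and -1.35 ± 0.47 for phosphate.

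KFL_000030750 had 194, 214 and 76.3 CPM at 24 h of nitrate, against 395, 334 and 289 CPM in nitrate-starved libraries. It had 101, 155 and 114 CPM at 24 h of phosphate, against 431, 426 and 568 CPM in phosphate-starved libraries, and 137, 177 and 138 CPM at 24 h of sucrose, against 344, 346 and 333 CPM in sucrose-starved libraries. The groups did not overlap for any nutrient. edgeR's log2 fold change was -1.07 ± 0.22 for nitrate (edgeR adjusted p = 5.02e-05), -1.94 ± 0.22 for phosphate (adjusted p = 8.9e-09) and -1.18 ± 0.22 for sucrose (adjusted p = 2.32e-05). With both libraries c left out the values were -0.74 ± 0.16 for nitrate and -1.89 ± 0.17 for phosphate.

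The 24 h responses were compared between nutrients by contrasts of 24 h minus starved, a test added after the data were seen. The response to phosphate was below that to nitrate in 18 genes and above it in 2 (62.5% in all, against 53.8% of all tested genes by edgeR's test, with 30% below and 23.8% above). For sucrose minus nitrate, 13 genes were below and 2 above (46.9% in all, against 45.2%, with 24.9% below and 20.3% above). For sucrose minus phosphate, 10 genes were above and 6 below (50% in all, against 47.6%, with 25.5% above and 22.1% below), and 7 were above and 7 below when TMM scaling was left out. The median log2 difference was -1.21 for phosphate minus nitrate, -0.78 for sucrose minus nitrate and 0.50 for sucrose minus phosphate. Leaving out both libraries c gave 20 genes below and 3 above for phosphate minus nitrate (71.9% in all, against 55.1% of all tested genes, with 30.4% below and 24.7% above). The same fit gave 19 below and 2 above for sucrose minus nitrate (65.6% in all, against 49.6%, with 26.5% below and 23.1% above). For sucrose minus phosphate it gave 13 above and 11 below (75% in all, against 51.9%, with 28.7% above and 23.1% below), and the median was -1.32 for phosphate minus nitrate, -1.09 for sucrose minus nitrate and 0.28 for sucrose minus phosphate. The comparisons share starved and 24 h libraries.

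Against the control, more of the genes were higher than lower at 24 h of each nutrient. By edgeR's test, 23 genes differed from the control at 24 h of nitrate (71.9%, against 74.1% of all tested genes), 17 higher and 6 lower, where 40.4% and 33.8% of all tested genes were. At 24 h of phosphate 24 differed (75%, against 73.5%), 15 higher and 9 lower, where 39.7% and 33.8% were. At 24 h of sucrose 26 differed (81.2%, against 74.3%), 18 higher and 8 lower, where 39.8% and 34.4% were. With all libraries, the total shares called were near those of all tested genes. The shares called higher (53.1%, 46.9% and 56.2%) were above those of all tested genes, and the shares called lower (18.8%, 28.1% and 25%) below. Changes of at least 2-fold were a higher share than over all tested genes, with the limit from the choice of genes given above. They were called in 15 genes upward and 4 downward for nitrate (59.4% in all, against 24.4%, with 13.9% upward and 10.5% downward). For phosphate they were called in 13 genes upward and 9 downward (68.8% in all, against 23.9%, with 12.6% and 11.3%), and for sucrose in 13 upward and 5 downward (56.2% in all, against 24.9%, with 13.6% and 11.4%). Leaving out TMM scaling moved the median of all genes by 0.48 to 0.54 (log2) here, and the nitrate split was then 21 higher and 4 lower. Without both libraries c, 28 genes differed for nitrate, 22 higher and 6 lower (74.7% of all tested genes, 39.1% higher and 35.6% lower), and 28 for phosphate, 17 higher and 11 lower (73.7%, with 39.1% and 34.6%). At least 2-fold changes were then called in 15 genes upward and 4 downward for nitrate (25.8% of all tested genes, 14% upward and 11.8% downward), and in 15 upward and 8 downward for phosphate (24.5%, with 13% and 11.5%). These comparisons share the control libraries.

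The largest rises over the control at 24 h were those of KFL_003550080 and KFL_002210110, by the mean log2 change among genes at 10 CPM or more called for every nutrient. KFL_003550080 had 21.9, 28.4 and 2.86 CPM at 24 h of nitrate, 18.2, 14.9 and 9.13 CPM at 24 h of phosphate, and 12.5, 13.9 and 11.5 CPM at 24 h of sucrose, against 0.558, 0.0585 and 0.654 CPM in control libraries. Every 24 h library was above every control library, including library c of both groups. Its log2 fold change was 5.31 ± 0.59 for nitrate (edgeR adjusted p = 1.88e-09), 5.00 ± 0.60 for phosphate (adjusted p = 8.36e-09) and 4.83 ± 0.60 for sucrose (adjusted p = 1.75e-08). The values were 5.82 ± 0.32 for nitrate and 5.23 ± 0.33 for phosphate without both libraries c. For KFL_002210110, with 113, 94.9 and 126 CPM in control libraries, the log2 fold change was 3.59 ± 0.28 for nitrate (edgeR adjusted p = 9.2e-13), 3.27 ± 0.28 for phosphate (adjusted p = 6.39e-12) and 3.20 ± 0.28 for sucrose (adjusted p = 8.98e-12), and without both libraries c it was 3.99 ± 0.15 for nitrate and 3.45 ± 0.15 for phosphate.

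The largest falls were those of KFL_009260030 and KFL_000040500. KFL_009260030 had the 24 h levels given above, from 1.4 to 13.6 CPM, against 42.9, 44 and 97.3 CPM in control libraries, and the ranges did not overlap. Its log2 change was -2.99 ± 0.44 for nitrate (edgeR adjusted p = 3.29e-07), -4.25 ± 0.48 for phosphate (adjusted p = 2.86e-09) and -3.87 ± 0.47 for sucrose (adjusted p = 1.22e-08). Leaving out both libraries c gave -3.77 ± 0.46 for nitrate and -3.91 ± 0.46 for phosphate. KFL_000040500 had 37.3, 42 and 29.6 CPM at 24 h of nitrate, 12.4, 16.6 and 23.4 CPM at 24 h of phosphate, and 30.1, 37.2 and 30.8 CPM at 24 h of sucrose, against 149, 157 and 155 CPM in control libraries. All its 24 h libraries were far below the control range. The log2 fold change was -2.09 ± 0.25 for nitrate (edgeR adjusted p = 8.6e-09), -3.15 ± 0.27 for phosphate (adjusted p = 4.96e-12) and -2.23 ± 0.25 for sucrose (adjusted p = 2.69e-09). Leaving out both libraries c gave -1.96 ± 0.26 for nitrate and -3.42 ± 0.29 for phosphate.

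**Figure D4:**
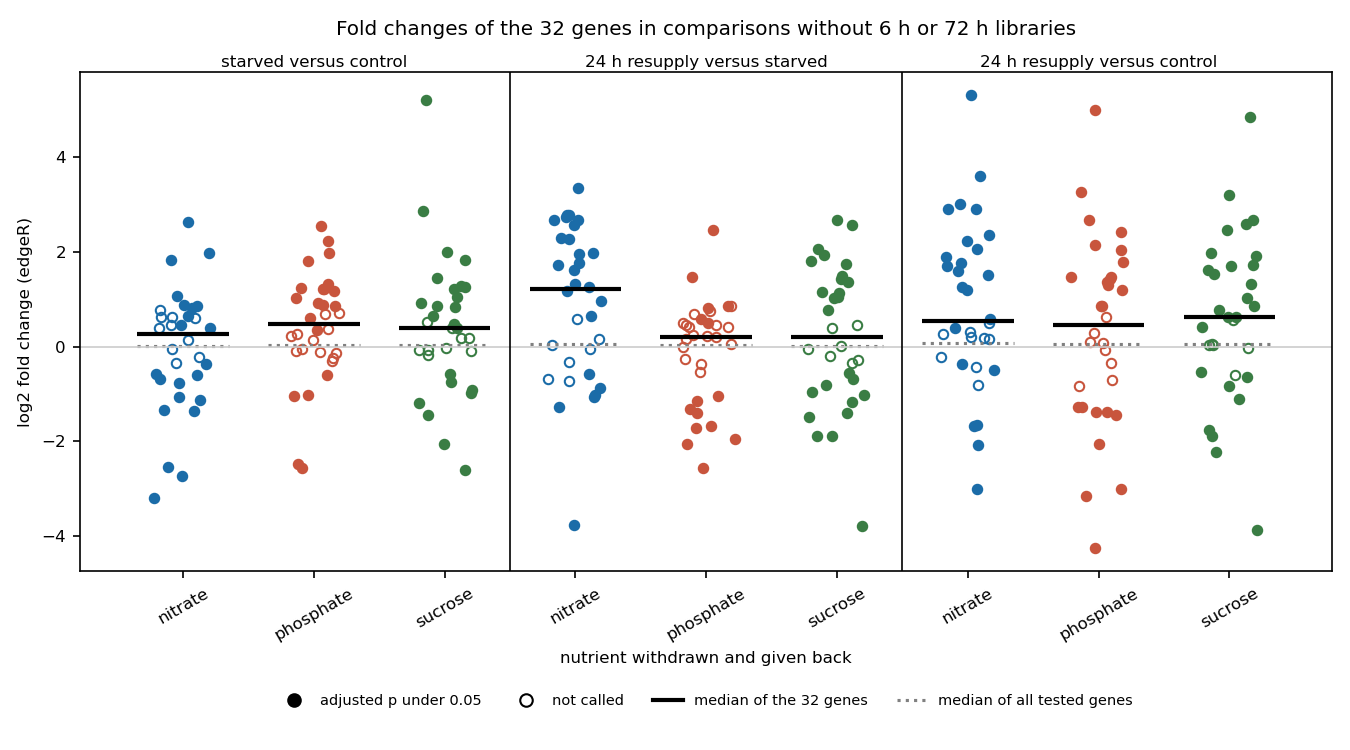
Log2 fold changes (edgeR) of the 32 genes in the 9 comparisons with starved, 24 h and control libraries; each dot is a gene, filled where the adjusted p was under 0.05, with thick bars for the median of the 32 genes and dotted bars for that of all tested genes. The genes spread on both sides of 0 in every comparison, and the highest median is that of nitrate at 24 h over nitrate-starved (1.22).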

How the data were processed

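The authors deposited raw counts for every gene in 1 table of 39 K. nitens libraries; 3 tables of the liverwort were not used here. Per the labels' protocols, directional libraries were made from poly(A)-enriched RNA. STAR 2.7 and DESeq2 are named in the submitters' processing notes. Genome build, annotation, counter and strand handling: not given in the sources used here; overlapping, antisense and near-identical genes are therefore uncertain.

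The counts were fitted once over all 39 libraries with edgeR 4.0.16 (limma 3.58.1, R 4.3.3), with TMM scaling, filterByExpr (12176 of 16122 genes kept) and two-sided quasi-likelihood F-tests; an adjusted p under 0.05 was called. SE is the log2 fold change over the square root of F. The fit was tested on simulated counts with known changes, and its error rates there are not given here. The 74 tRNA and rRNA genes stayed in the library totals. No pair of libraries held equal counts (0), and 0 columns matched no group.

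The members, lists and tests were chosen with earlier results of these data known. Genes named with full values follow a rule: the 2 with the highest smallest ratio, and for each family of 3 comparisons the 2 called higher and the 2 called lower most often, then by mean log2 change, at 10 CPM or more; others were named after their values were seen. In 24 columns the name matched a group but the labels of more than 1 sample, and these libraries were used with no replicate number. Separate cultures are not stated for replicates, and p-values may then measure technical spread only. Alternatives were other scalings, DESeq2 1.42.0, no filter, only the groups compared, a replicate block, and each library left out.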

Additional observations from a re-analysis of the deposited data

Results flagged for a closer look

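For 9 of the 32 genes the effects of 2 nutrients under the same comparison lay on opposite sides of 0, both past the threshold, and the difference itself passed edgeR's quasi-likelihood test with Benjamini-Hochberg adjustment over all tested genes. These are 28.1% of the 32 genes, against 25.4% of all 12176 tested genes that met the same conditions, so the share was near that of all tested genes. By comparison it was 4 genes at 24 h against starved (12.5%, against 12.1%) and 6 under starvation (18.8%, against 16.5%). With both libraries c left out, which changes the error estimate of every comparison, the counts were 13 genes in all (40.6%, against 28.8%), 8 at 24 h (25%, against 13.3%) and 9 under starvation (28.1%, against 19.5%). No explanation was tested.

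At 24 h against the starved group, KFL_000780210 had 219, 293 and 278 CPM with sucrose, against 62.2, 55 and 73 CPM in sucrose-starved libraries, and 119, 202 and 100 CPM with phosphate, against 467, 420 and 507 CPM in phosphate-starved libraries. Every 24 h sucrose library was above every sucrose-starved library, and every 24 h phosphate library was below every phosphate-starved library. The difference of the log2 changes, sucrose minus phosphate, was 3.78 ± 0.34 (edgeR adjusted p = 1.65e-10), and 3.59 ± 0.30 without both libraries c. KFL_000760260 had 11.3, 16.2 and 11.6 CPM at 24 h of phosphate, against 29.5, 22.5 and 51.3 CPM in phosphate-starved libraries, and 30.4, 34 and 7.19 CPM at 24 h of nitrate, against 3.14, 2.39 and 1.37 CPM in nitrate-starved libraries. Its difference, phosphate minus nitrate, was -4.76 ± 0.51 (edgeR adjusted p = 6.64e-09), and -5.12 ± 0.39 without both libraries c. KFL_000040500 fell at 24 h of phosphate and rose at 24 h of nitrate, with a difference of -3.20 ± 0.36 (edgeR adjusted p = 1.89e-08), and -3.59 ± 0.38 without both libraries c. KFL_010750010 had 346, 528 and 416 CPM at 24 h of sucrose, against 193, 212 and 175 CPM in sucrose-starved libraries, and 165, 368 and 209 CPM at 24 h of phosphate, against 888, 775 and 1405 CPM in phosphate-starved libraries. Its difference, sucrose minus phosphate, was 3.20 ± 0.61 (edgeR adjusted p = 6.61e-05), and 3.10 ± 0.37 without both libraries c.

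Under starvation against the control, KFL_010750010 fell without sucrose and rose without phosphate, with a difference of -2.40 ± 0.44 (edgeR adjusted p = 2.03e-05). KFL_000950060 had 21.5, 20.7 and 18.2 CPM in sucrose-starved libraries and 3.49, 3.82 and 4.98 CPM in phosphate-starved libraries, against 6.65, 5.14 and 13.6 CPM in control libraries. Its difference, sucrose minus phosphate, was 2.30 ± 0.31 (edgeR adjusted p = 2.03e-07). KFL_005390100 had a difference, sucrose minus nitrate, of 1.68 ± 0.25 (edgeR adjusted p = 8.08e-07). For KFL_002220180 the same difference was 0.78 ± 0.11 (edgeR adjusted p = 8.08e-07). KFL_005400050 had 54.8, 50 and 57.6 CPM in phosphate-starved libraries and 164, 163 and 189 CPM in nitrate-starved libraries, against 94.7, 110 and 124 CPM in control libraries. Its difference, phosphate minus nitrate, was -1.67 ± 0.16 (edgeR adjusted p = 1.41e-10). KFL_000550170 had a difference, phosphate minus nitrate, of 1.60 ± 0.27 (edgeR adjusted p = 7.53e-06).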

How the results depend on the processing

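Of 216 counts under other settings, 213 stayed within 1.5 times the value reported. The exceptions were 24 members called at 24 h of phosphate against starved without both libraries c, and 143 or 6 genes under the rule with a ratio of 1.5 or 2.5. With each library left out, the rule gave 27 (without phosphate 6 h library b) to 42 genes (without phosphate 6 h library c), and TMM-scaled CPM gave 30. Of 436 fold changes of named genes under other settings, 420 kept their direction and call, 16 lost the call and 0 turned direction; beside the 2 phosphate calls given above, these were sucrose starvation in KFL_000380190 (2 settings, edgeR adjusted p up to 0.0819) and in KFL_000040500 (1 setting, 0.17). Leaving out single libraries gave 16 to 19 calls for nitrate starvation (22 with all libraries). It gave 15 to 20 for phosphate starvation (19) and 20 to 22 for sucrose starvation (23). At 24 h against starved it gave 21 to 26 for nitrate (25), 14 to 19 for phosphate (15) and 20 to 22 for sucrose (25). Deviations of equally numbered libraries were not clearly correlated between groups (from -0.058 to 0.047), but these correlations were not given for the described genes alone. Among those genes library 2 was the highest for 21 when sucrose-starved, 24 at 6 h and 24 at 24 h of sucrose. It was the highest for 6 at 72 h of sucrose and for 6 in the control. Whether the library number carries a shared shift in these genes was not tested. With the replicate block over numbered libraries, 24 genes changed under sucrose starvation, 27 at 24 h of sucrose against starved and 28 against the control, the same counts as without the block in those libraries. The block was not fitted for nitrate and phosphate, whose column names end in a number but match the labels of more than 1 sample, so the number was not used. With 3 libraries a group, small differences may go undetected at this depth.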

Other observations

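By identifier, 6 of the 32 genes formed 3 pairs that share all digits before the last 4 (KFL_000320410 and KFL_000320430, KFL_000550170 and KFL_000550330, KFL_002220100 and KFL_002220180), out of 1684 such prefixes in the table. What these digits stand for was not given in the sources used here, and the pairs were noticed after the genes had been chosen.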
